A study of Homo sapiens with 12 samples.

Results

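The genes of MHC class II antigen presentation were read on 28 probe sets of 10 genes, out of 54613 non-control probe sets and 19775 genes on the array. They are HLA-DRA, HLA-DRB1, HLA-DPA1, HLA-DPB1, HLA-DQB1, HLA-DMA, HLA-DMB, HLA-DOA, CD74 and CIITA, and every probe set whose annotation gave 1 of these symbols and no other was taken. The genes were chosen from earlier results on these same arrays, so their differences between groups are given as descriptions, with no p-value. Where a probe set of theirs is said to be called, it passed the threshold of the fit over all probe sets, and the call serves to describe it and supports nothing. A further 5 probe sets are annotated to HLA-DRB1 together with related DRB or DQB genes and are described separately, since the chains of this family share sequence.

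The arrays hold total RNA of MDA-MB-231, an established human cell line from a metastatic breast cancer, in 3 groups of 4 arrays lettered A to D. The control cells, shGFP, carried a retroviral hairpin against GFP. The shHIF cells carried retroviral hairpins against both HIF alpha subunits, HIF1a (gene HIF1A) and HIF2a (gene EPAS1). The Sharp1 cells overexpressed Sharp1, a transcriptional repressor of the basic helix-loop-helix class whose gene is BHLHE41. For the Sharp1 cells no vector is named, and both other groups are set against the hairpin control. All cells were left untreated in serum-containing medium. The study asked how Sharp1 relates to the HIFs and to metastasis. The comparisons give how transcript levels in each group differed from the same 4 control arrays. For the Sharp1 cells, an effect of Sharp1 and an effect of the vector cannot be told apart. The replicates are labelled biological, and whether they came from separate cultures is not stated, so every spread below is the spread between these arrays.

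MHC class II molecules are pairs of an alpha and a beta chain that display peptides from endosomes to CD4 T cells. The invariant chain, CD74, fills their groove during assembly and is cut by endosomal proteases, and HLA-DM then exchanges its last fragment for a peptide while HLA-DO restrains HLA-DM. The chains, CD74 and DM are switched on together by CIITA, a coactivator that does not bind DNA itself. CIITA is recruited by the RFX, CREB and NF-Y proteins on conserved X and Y boxes of the promoters. The usual makers are B cells, dendritic cells and macrophages, and many other cells make class II after interferon-gamma.

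To show the control sequences that these genes are known to share, the stretch from 150 to 11 bases before the transcription start is printed for 6 genes whose brightest probe set was higher in shHIF, and for HLA-DOA, whose brightest probe set was not called in any comparison. The sequences are the reference of RefSeq, build GRCh38.p14, not the alleles of MDA-MB-231. Capitals mark AGNAACNGA, here called the X letters after the X box, and ATTGG or its reverse complement CCAAT, the Y letters. Both were searched on both strands. A box may be spelled otherwise, so a window without these letters may still hold it, and a match need not be a box. The letters searched were chosen after the promoters had been read.
HLA-DRB1: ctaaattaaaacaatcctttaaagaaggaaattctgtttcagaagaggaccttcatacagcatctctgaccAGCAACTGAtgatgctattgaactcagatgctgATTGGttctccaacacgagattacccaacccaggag
HLA-DPA1: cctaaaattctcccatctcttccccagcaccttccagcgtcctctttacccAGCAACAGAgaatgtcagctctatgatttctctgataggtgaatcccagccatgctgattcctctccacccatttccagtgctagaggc
HLA-DPB1: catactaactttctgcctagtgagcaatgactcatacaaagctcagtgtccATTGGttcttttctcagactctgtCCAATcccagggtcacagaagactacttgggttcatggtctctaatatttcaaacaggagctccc
HLA-DMA: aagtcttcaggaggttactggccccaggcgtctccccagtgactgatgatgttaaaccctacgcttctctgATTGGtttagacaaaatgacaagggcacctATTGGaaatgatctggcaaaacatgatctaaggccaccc
HLA-DMB: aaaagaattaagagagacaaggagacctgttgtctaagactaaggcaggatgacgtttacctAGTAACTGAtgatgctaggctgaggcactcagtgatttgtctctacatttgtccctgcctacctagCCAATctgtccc
HLA-DOA: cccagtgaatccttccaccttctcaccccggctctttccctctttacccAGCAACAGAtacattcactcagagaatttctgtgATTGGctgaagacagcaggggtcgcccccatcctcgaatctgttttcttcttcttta
CD74: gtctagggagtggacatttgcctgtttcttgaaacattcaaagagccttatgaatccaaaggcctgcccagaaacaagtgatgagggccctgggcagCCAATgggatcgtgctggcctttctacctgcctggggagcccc

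The windows lie at chr6:32589859-32589998 for HLA-DRB1, chr6:33073660-33073799 for the more downstream start of HLA-DPA1, chr6:32953108-32953247 for HLA-DMA, chr6:32941039-32941178 for HLA-DMB, chr6:33009602-33009741 for HLA-DOA and chr5:150412921-150413060 for CD74, all on the minus strand, and at chr6:33075840-33075979 on the plus strand for HLA-DPB1. Of 9 promoter entries of 8 of the genes, 4 held AGNAACNGA, against 1.99% of 35097 human promoter entries of the same length. ATTGG stood in 7 of the 9, against 22.8% of all. Both stood in 3 of the 9, those of HLA-DRB1, HLA-DMB and HLA-DOA, against 0.393% of all. In HLA-DRB1 the X letters began 79 bases and the Y letters 46 bases before the start, and in HLA-DOA 101 and 67 bases before it, all on the strand of the gene. HLA-DMB differed, with the X letters 88 bases before the start and the Y letters 22 bases before it on the opposite strand. HLA-DOA thus carried both stretches, and its brightest probe set had overlapping groups. HLA-DRA and CIITA had no entry. Because the letters were chosen after these promoters had been read, nothing is read from the shares. A match describes letters and is not a measured binding site.

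The arrays had medians between 5.387 and 5.443 on the log2 scale, and the median probe set read 5.41. Pearson correlations across probe sets were at least 0.9957 within a group and at most 0.995 between groups. The hybridisation spike-ins read 10.394 in shHIF A and 10.448 in shHIF D and at least 10.631 on every other array, and the actin 3′ minus 5′ difference was 0.896 to 0.941 in shHIF A, B and C and 0.851 in Sharp1 C, above all control arrays at 0.592 to 0.736, while shHIF D read 0.618 and the other Sharp1 arrays 0.56 to 0.679. EPAS1 was lower in shHIF by a log2 difference of -2.85 (SE 0.07) and HIF1A by -0.73 (SE 0.03), and in Sharp1 the differences were -0.71 for EPAS1 and 0.09 for HIF1A. BHLHE41 read 3.89 in control and 9.24 in Sharp1 on 1 probe set (223185_s_at) and rose by 1.59 on a second (231243_s_at), fell by 2.06 on another (221530_s_at) and differed by -0.13, not called, on the last. Which part of the transcript each of them reads was not analysed here. The vimentin, CD44, AXL and caveolin transcripts of the line's mesenchymal state read 12.04 or above in control, and E-cadherin, ESR1, PGR and FOXA1 read 6.27 or below. SPARC read 3.67, and EPCAM at 9.54 and GATA3 at 8.57 did not follow the usual description of the line. Of 14 such identity genes, 1 rose and 3 fell in shHIF, with a median difference of -0.07, and 3 rose and 3 fell in Sharp1, with a median of 0.03.

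In shHIF most of the chains, both DM subunits and CD74 were higher than in control, and in Sharp1 the same probe sets were lower or did not differ clearly. Of the 28 probe sets, 12 were called higher in shHIF (adjusted p under 0.05 over all probe sets) and the other 16 were not called. Over all probe sets 10.7% were called higher and 11.5% lower in that comparison. In Sharp1, 8 of the 28 were called lower and the other 20 were not called, where 8.26% of all probe sets were called lower and 9.82% higher. Between Sharp1 and shHIF, 15 of the 28 were called lower in Sharp1, beside 13.8% of all probe sets lower and 15.3% higher. Nothing is read from these counts, because the genes were chosen from these comparisons. Without shHIF A and D, the arrays of lower spike-in signal, 10 of the 28 were called higher in shHIF, and the part of the actin 3′ to 5′ difference was not tested. The median difference over the 28 probe sets was 0.20 in shHIF, -0.16 in Sharp1 and -0.28 between Sharp1 and shHIF, beside medians over all probe sets of 0.024, -0.008 and -0.042.

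The separation of the arrays gave a like picture. The 4 shHIF arrays lay wholly above the 4 control arrays on 13 of the 28 probe sets, beside 11.2% of all probe sets wholly higher and 11.1% wholly lower. The 4 Sharp1 arrays lay wholly below control on 8 of the 28, beside 10.0% wholly lower and 11.6% wholly higher over all. Sharp1 lay wholly below shHIF on 15 of the 28, beside 13.8% wholly lower and 14.2% wholly higher. On 8 probe sets shHIF was wholly above and Sharp1 wholly below control, and 7 probe sets of 6 genes were called in both directions: those of HLA-DRA, HLA-DRB1, HLA-DPA1, HLA-DMA, HLA-DMB and CD74. No share over all probe sets was taken for these joint counts, and nothing is read from them. A total of 15 probe sets were called in neither comparison with control. Of the 28, 12 read below the median probe set in every group, and 2 of these 12 were called in at least 1 comparison with control.

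**Figure D1:**
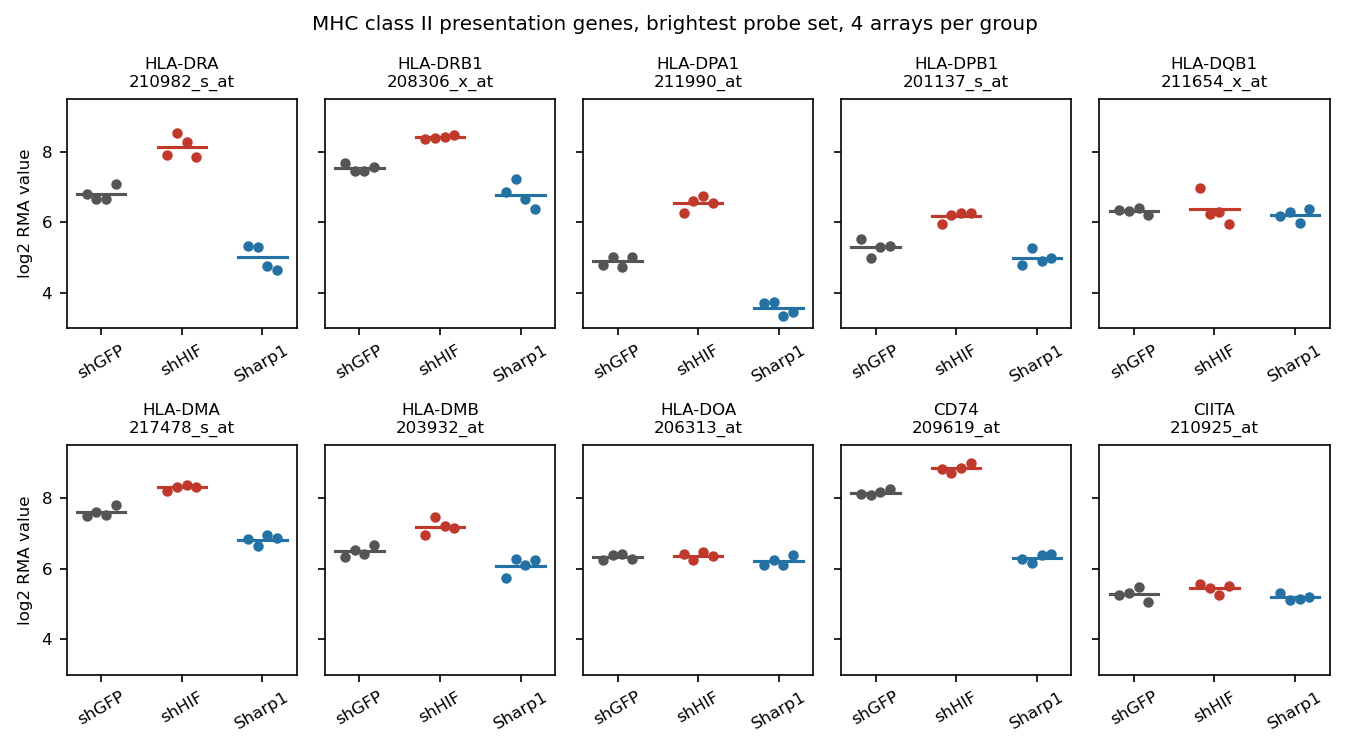
Log2 RMA value (vertical axis) of the brightest probe set of each of the 10 genes in the 4 arrays of each group; points are arrays and bars are group means. On the probe set of HLA-DRA the shHIF arrays read 7.86 to 8.53 and the Sharp1 arrays 4.65 to 5.34, on either side of control at 6.65 to 7.08, while HLA-DQB1, HLA-DOA and CIITA show overlapping groups.

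HLA-DRA, the alpha chain that every HLA-DR molecule contains, had the widest span between groups of the 10 genes. On 208894_at, which carries no suffix for shared sequence, control arrays A to D read 6.60, 6.76, 6.62 and 6.87, shHIF arrays 7.93, 8.37, 8.30 and 7.90, and Sharp1 arrays 4.48, 4.43, 4.81 and 4.22. The 3 groups did not overlap, and each Sharp1 array lay more than 1.5 log2 units below every control array. Group means were 6.71 ± 0.13, 8.13 ± 0.25 and 4.48 ± 0.24 (SD, n = 4). The difference from control was 1.41 (SE 0.12) in shHIF, a level 2.67 times that of control. In Sharp1 it was -2.23 (SE 0.12), which left 21.4% of the control level, and Sharp1 stood 12.5-fold below shHIF. The Sharp1 arrays read below the median probe set, where low values are compressed, so these Sharp1 ratios are approximate.

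The other HLA-DRA probe set, 210982_s_at, gave the same order. Control arrays read 6.79, 6.66, 6.65 and 7.08, shHIF arrays 7.90, 8.53, 8.28 and 7.86, and Sharp1 arrays 5.34, 5.29, 4.76 and 4.65. Its differences from control were 1.34 (SE 0.15) in shHIF and -1.79 (SE 0.15) in Sharp1, with no overlap between groups. On both probe sets the Sharp1 difference from control was the larger in size.

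HLA-DRB1 encodes the polymorphic beta chain that pairs with HLA-DRA. On its only single-symbol probe set, 208306_x_at, control arrays read 7.69, 7.46, 7.45 and 7.56, shHIF arrays 8.37, 8.39, 8.42 and 8.49, and Sharp1 arrays 6.86, 7.23, 6.67 and 6.39. The shHIF arrays were tight, with an SD of 0.05, and the Sharp1 arrays were spread, with an SD of 0.35. The groups were separate, with differences from control of 0.88 (SE 0.11) and -0.75 (SE 0.11). The suffix x marks probe sets that can also bind related transcripts, so this value may include other DRB genes.

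The 5 probe sets shared between HLA-DRB1 and its relatives behaved like it where they had signal. On 204670_x_at, annotated to HLA-DRB4 and HLA-DRB1, the control mean was 7.63 ± 0.13, the shHIF mean 8.57 ± 0.07 and the Sharp1 mean 6.63 ± 0.16 (SD, n = 4). On 209312_x_at the differences from control were 1.11 (SE 0.10) in shHIF and -1.82 (SE 0.10) in Sharp1. On 215193_x_at they were 1.07 and -1.85 (SE 0.09 for both), so both of these shared probe sets gave a larger Sharp1 difference than the single-symbol one. The dimmer 221491_x_at differed by 0.23 (SE 0.15), not called, in shHIF and by -0.68 (SE 0.15) in Sharp1, and 238900_at read below 3.2 on every array and was not called. In all, 3 of the 5 were called higher in shHIF and 4 lower in Sharp1, with median differences of 0.94 and -0.99.

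HLA-DPA1 encodes the alpha chain of HLA-DP. On 211990_at control arrays read 4.79, 5.01, 4.74 and 5.02, shHIF arrays 6.26, 6.60, 6.74 and 6.54, and Sharp1 arrays 3.71, 3.75, 3.35 and 3.46. The groups were wholly separate, and the shHIF difference of 1.65 (SE 0.12), a level 3.13 times that of control, was the largest shHIF difference among the 28 probe sets. Sharp1 differed by -1.32 (SE 0.12), which left 40.0% of the control level. The control and Sharp1 arrays all read below the median probe set, where low values are compressed, so these ratios are approximate.

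The other HLA-DPA1 probe sets were dimmer, and their Sharp1 differences were small. On 211991_s_at control arrays read 4.61, 4.43, 4.43 and 4.63, shHIF arrays 5.34, 5.16, 5.77 and 5.46, and Sharp1 arrays 4.15, 4.32, 4.20 and 4.26. The Sharp1 arrays lay wholly below control, yet the difference of -0.29 (SE 0.11) was not called, while the shHIF difference was 0.91 (SE 0.11). On 213537_at control arrays read 3.00, 3.22, 3.42 and 3.46, shHIF arrays 3.86, 4.12, 3.78 and 4.09, and Sharp1 arrays 3.05, 3.19, 2.85 and 3.02. There Sharp1 overlapped control, at -0.25 (SE 0.11), and shHIF was wholly above it, at 0.69 (SE 0.11). Both probe sets were called higher in shHIF.

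HLA-DPB1, the beta chain of HLA-DP, was called in shHIF and not in Sharp1, as were the dimmer HLA-DPA1 probe sets. On 201137_s_at control arrays read 5.54, 4.99, 5.31 and 5.32, shHIF arrays 5.96, 6.21, 6.26 and 6.26, and Sharp1 arrays 4.78, 5.26, 4.89 and 4.98. The shHIF arrays were wholly above control, by 0.88 (SE 0.12), whereas the Sharp1 arrays overlapped control and their difference of -0.31 (SE 0.12) was not called. Leaving out control B or Sharp1 B, or weighting arrays, brought that difference past the threshold. The second probe set, 244485_at, read 3.35 to 3.63 on all arrays of all groups, with differences of 0.07 and 0.04.

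HLA-DQB1, the beta chain of HLA-DQ, had the most probe sets, and most of them showed no clear difference. Only 209823_x_at among its 7 probe sets was called against control: control arrays read 5.93, 6.11, 6.07 and 6.05, shHIF arrays 6.34, 6.23, 6.40 and 6.59, and Sharp1 arrays 5.80, 6.01, 5.84 and 6.14. The shHIF arrays lay above control by 0.35 (SE 0.10), a call that was lost without shHIF A and D, and Sharp1 overlapped control at -0.09. On 211656_x_at control arrays read 6.11, 6.10, 6.13 and 5.98, shHIF arrays 6.35, 6.23, 6.29 and 6.25, and Sharp1 arrays 5.95, 6.15, 6.06 and 5.55. It was called only between Sharp1 and shHIF (-0.35, SE 0.10), as was 212998_x_at (-0.30, SE 0.11), where control arrays read 4.37, 4.20, 4.22 and 4.12, shHIF arrays 4.29, 4.17, 4.32 and 4.61, and Sharp1 arrays 3.85, 4.06, 4.21 and 4.08. The first of these calls was lost without Sharp1 D and without shHIF A and D together, and the second was lost in 12 of 19 alternatives.

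The brightest HLA-DQB1 probe set, 211654_x_at, showed how far single arrays can stray. Control arrays read 6.20 to 6.42 and Sharp1 arrays 5.97 to 6.39, and the shHIF arrays A to D read 6.98, 6.23, 6.30 and 5.95. The shHIF mean of 6.37 ± 0.44 (SD, n = 4) differed from control by 0.05 (SE 0.14), with overlap in every comparison. The other 3 probe sets, 210747_at, 209480_at and 212999_x_at, had group means of 2.84 to 3.62 and differences from control of -0.17 to 0.23, none of them called. The alpha chain of HLA-DQ, HLA-DQA1, read 4.23 in control on its brightest probe set and differed by -0.03 and -0.07.

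**Figure D2:**
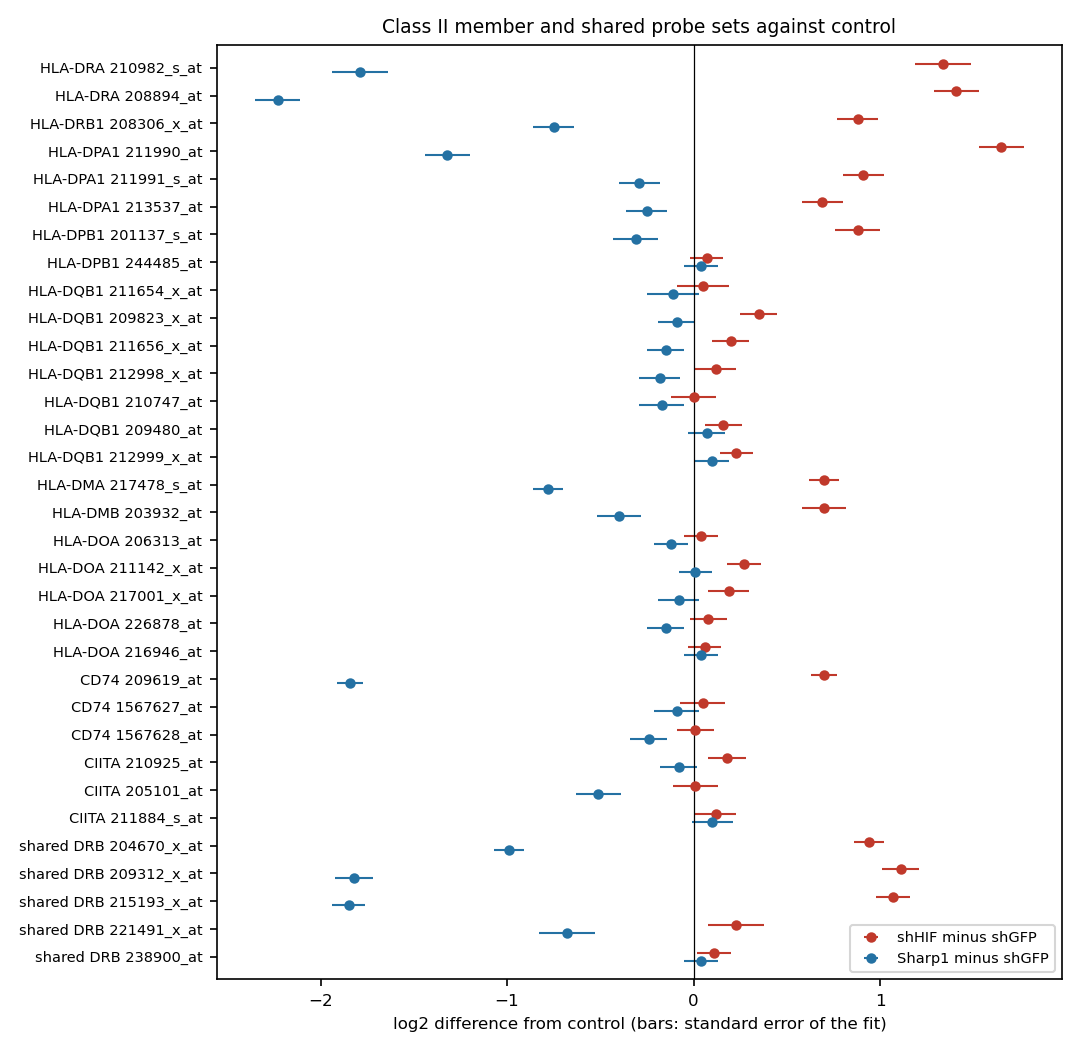
Log2 difference from control (horizontal axis) of the 28 probe sets of the 10 genes and the 5 shared DRB probe sets, shHIF in red and Sharp1 in blue, with the standard error of the fit as bars. The DR, DPA1, DM and CD74 probe sets with signal lie right of 0 in shHIF and left of it in Sharp1, and most DQB1 and DOA probe sets lie within 0.3 of 0.

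HLA-DMA and HLA-DMB form HLA-DM, the peptide exchanger of the endosome. On the HLA-DMA probe set 217478_s_at control arrays read 7.49, 7.6, 7.52 and 7.81, shHIF arrays 8.21, 8.33, 8.37 and 8.32, and Sharp1 arrays 6.84, 6.66, 6.95 and 6.86. The groups were separate, at 0.70 (SE 0.08) in shHIF and -0.78 (SE 0.08) in Sharp1, a near-symmetric pair of 163% and 58.3% of the control level. On the HLA-DMB probe set 203932_at control arrays read 6.34, 6.53, 6.42 and 6.68, shHIF arrays 6.95, 7.47, 7.21 and 7.15, and Sharp1 arrays 5.73, 6.29, 6.10 and 6.25. HLA-DMB also had separate groups, at 0.70 (SE 0.12) and -0.40 (SE 0.12), but its Sharp1 call was lost without control D or without Sharp1 A.

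HLA-DOA, the alpha chain of the DM inhibitor HLA-DO, was not called on 4 of its 5 probe sets. On the brightest, 206313_at, control arrays read 6.24 to 6.43, shHIF arrays 6.24 to 6.48 and Sharp1 arrays 6.10 to 6.40, with differences of 0.04 (SE 0.09) and -0.12 (SE 0.09). Only 211142_x_at was called: control arrays read 6.08, 5.80, 6.02 and 6.05, shHIF arrays 6.37, 6.25, 6.10 and 6.30, and Sharp1 arrays 6.01, 5.91, 5.99 and 6.07. Its shHIF difference of 0.27 (SE 0.09) was no longer called in 5 of 20 alternatives, among them leaving out control B, shHIF A, shHIF B or shHIF D. On 217001_x_at, 226878_at and 216946_at the differences from control ran from -0.15 to 0.19, and the groups overlapped. HLA-DOB, the partner beta chain, read 5.66 in control and differed by 0.02 in shHIF. In Sharp1 it fell by 0.31 (SE 0.09, limma adjusted p = 0.0157), and 4 of 20 alternatives lost that call, among them leaving out control A, control D or Sharp1 D.

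CD74, the invariant chain and also a receptor for the cytokine MIF, had the smallest standard error of the 28 probe sets on 209619_at. Control arrays read 8.12, 8.08, 8.18 and 8.25, shHIF arrays 8.84, 8.73, 8.87 and 9.0, and Sharp1 arrays 6.29, 6.16, 6.40 and 6.42. The groups did not overlap, and the Sharp1 difference was larger in size than the shHIF one. It was 0.70 (SE 0.07) in shHIF and -1.84 (SE 0.07) in Sharp1, which left 27.9% of the control level. The other CD74 probe sets did not show this. On 1567627_at the arrays read 4.95 to 5.54 with differences of 0.05 and -0.09, and on 1567628_at they read 3.68 to 4.27 with differences of 0.01 and -0.24 (SE 0.10), none of them called.

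CIITA, the coactivator of the class II genes, was dim, and 1 of its 3 probe sets was called. On 205101_at control arrays read 5.0, 4.75, 5.05 and 4.95, shHIF arrays 4.92, 5.07, 4.95 and 4.84, and Sharp1 arrays 4.38, 4.78, 4.19 and 4.35. Sharp1 B, at 4.78, overlapped the lowest control array, and the other 3 Sharp1 arrays lay below every control array. The difference was -0.51 (SE 0.12), called lower, in Sharp1 and 0.01 (SE 0.12) in shHIF, where the class II chains were higher. On 210925_at the arrays read 5.06 to 5.57, with differences of 0.18 (SE 0.10) in shHIF and -0.08 in Sharp1, and on 211884_s_at 4.40 to 4.86, with differences of 0.12 and 0.10 (SE 0.11 for both). None of these 4 was called. The group means of the 3 probe sets lay between 4.42 and 5.45, near or below the median probe set.

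With 1 probe set per gene, the brightest, 7 of the 10 genes were called higher in shHIF, beside 17.6% of all genes higher and 13.2% lower. In Sharp1 6 were called lower, beside 11.8% of all genes lower and 15.3% higher. Between Sharp1 and shHIF 7 were lower in Sharp1, beside 20.4% of all genes lower and 18.0% higher, and these counts too were chosen with the genes. The median differences of the 10 genes were 0.70, -0.58 and -1.34, against 0.047, -0.002 and -0.06 over all genes. The summed linear signal of the 10 probe sets was 1101 to 1215 in the control arrays, 1849 to 1994 in shHIF and 613 to 681 in Sharp1. The order was thus shHIF, control and Sharp1 in every array of the sum. For HLA-DPB1 control and Sharp1 did not differ beyond their spread, and for HLA-DQB1, HLA-DOA and the brightest CIITA probe set no neighbours in that order did.

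Professional antigen-presenting cells express class II at high levels, so their markers were read as well. Of 24 markers of B cells, dendritic cells and macrophages, 21 had a tested gene, and 13 of these read below the median probe set in each group. Their mean log2 value was 4.96 to 5.05 in the control arrays, 4.96 to 5.12 in shHIF and 4.87 to 5.02 in Sharp1, and their summed signal was 774 to 835, 765 to 853 and 709 to 803. PTPRC, the leukocyte antigen CD45, read 4.01 in control and was called higher in both, by 0.37 (limma adjusted p = 0.0144, lost without control C and without shHIF A and D) in shHIF and 0.44 (adjusted p = 0.00413) in Sharp1. Both calls were lost when its probe sets were averaged. CD22 fell by 0.26 (adjusted p = 0.0188) and AIF1 fell by 0.26 (adjusted p = 0.0263) in Sharp1, and the others were not called against control. The CD22 call was lost without Sharp1 A or C, and the AIF1 call without control A, B or C or Sharp1 C or D. The list's median difference was 0.01 in shHIF and -0.08 in Sharp1. The part of B cells, dendritic cells and macrophages in the class II values was not tested. In bulk RNA, fewer cells with the transcript and less transcript per cell cannot be told apart.

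The remaining genes of the pathway were not among the chosen members and were read in a fit over all genes. Of 107 with a value, 24 rose and 17 fell in shHIF and 13 rose and 32 fell in Sharp1, with median differences of 0.01 and -0.06. Between Sharp1 and shHIF 22 were higher and 41 lower in Sharp1, with a median of -0.06. These were 20.6% and 38.3% of the 107, beside 18.0% of all genes higher and 20.4% lower. In shHIF 22.4% of the 107 rose and 15.9% fell, beside 17.6% and 13.2% of all genes. In Sharp1 12.1% rose and 29.9% fell, beside 15.3% and 11.8% of all genes. The same shares of all genes stand behind the count of each list below. Of these calls 13 rises and 8 falls in shHIF and 10 rises and 19 falls in Sharp1 held in every alternative. The lists behind them were drawn up with earlier results of these arrays known, so their calls and adjusted p-values are descriptions too. The 107 include 7 other class II chains and pseudogenes, some of which share sequence with HLA-DRB1.

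Transcripts of the proteins that bind class II promoters beside CIITA changed in either direction against control. Of 10, 2 rose and 2 fell in shHIF and 2 rose and 2 fell in Sharp1, with median differences of -0.10 and 0.10. Between Sharp1 and shHIF 6 were higher and 1 lower in Sharp1, with a median of 0.18. RFXAP, a subunit of the X box factor RFX, rose by 0.78 (SE 0.10, limma adjusted p = 7.2e-07) in Sharp1, where its arrays lay wholly above control, and its second probe set was not called. RFX5, the RFX subunit that binds DNA, differed by -0.10 in shHIF and by -0.12 (adjusted p = 0.038) in Sharp1. That call was lost in 8 of 21 alternatives, among them leaving out control A, C or D or Sharp1 A or B. RFXANK rose by 0.18 (adjusted p = 0.0149) in shHIF, lost without control B or shHIF D. Of the Y box factor NF-Y, NFYA rose by 0.30 (adjusted p = 7.35e-05) in shHIF and fell by 0.21 (adjusted p = 0.00243) in Sharp1, while NFYB went the other way, at -0.27 (adjusted p = 0.000207) and 0.15 (adjusted p = 0.0367). The Sharp1 call of NFYB was lost in 9 of 21 alternatives, among them leaving out control A, B or C or Sharp1 A, B or D. NFYC, CREB1, ZXDA and ZXDB were not called against control on their brightest probe sets. Of 7 CREB1 probe sets, 3 were called lower in shHIF and 1 in Sharp1, and 1 of 6 NFYC probe sets was called lower in shHIF. With probe sets averaged, CREB1 and NFYC were called lower in shHIF. ZXDC fell by 0.23 (adjusted p = 0.0128) in shHIF, lost without shHIF A. The NFYA fall in Sharp1 was lost when all its probe sets were averaged.

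Interferon-gamma acts through JAK kinases and IRF1 on one of the CIITA promoters. Of 17 genes of that route and its targets, 1 rose and 2 fell in shHIF, with a median of -0.05, and 1 rose and 6 fell in Sharp1, with a median of -0.09. IRF1 fell by 0.27 (SE 0.06, limma adjusted p = 0.00141) and IRF2 by 0.42 (SE 0.08, adjusted p = 0.000101) in Sharp1 and differed by 0.05 and -0.07 in shHIF. Of the 2 IRF1 probe sets, the dimmer 1 was called lower in shHIF. The interferon-induced GTPases GBP1 and GBP2 fell in Sharp1 by 0.63 (adjusted p = 1.97e-10) and 0.56 (adjusted p = 1.67e-05). GBP2 rose by 0.43 (adjusted p = 0.000409) in shHIF, a call lost when its probe sets were averaged. GBP1 differed by 0.01 in shHIF, and 1 of its 4 probe sets was called lower there. JAK2 fell by 0.35 (adjusted p = 0.0168) in shHIF, a call lost without control B, shHIF A or shHIF D and when its probe sets were averaged. The receptor genes IFNGR1 and IFNGR2 were not called against control on their brightest probe sets, and 1 of 3 IFNGR1 probe sets was called lower in shHIF. PTPN11, a phosphatase gene, fell by 0.15 in shHIF (adjusted p = 0.000732), lost when its probe sets were averaged. IDO1 rose by 0.29 in Sharp1 (adjusted p = 0.0341), lost without control A, B or D or Sharp1 B or C.

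Coactivators and repressors that work with or on CIITA split between the groups. Of 14, 2 rose and 5 fell in shHIF, with a median of -0.11, and 2 rose and 2 fell in Sharp1, with a median of -0.04. SMARCA4, the BRG1 ATPase of chromatin remodelling, fell by 0.74 (SE 0.04, limma adjusted p = 2.69e-13) in shHIF and differed by 0.04 in Sharp1. FBXO11, a ubiquitin ligase subunit that targets CIITA for degradation, fell by 0.70 (SE 0.06, adjusted p = 1.99e-09) in shHIF and differed by -0.08 in Sharp1. The acetyltransferase gene KAT2B rose by 0.42 (adjusted p = 2.71e-06) and the methyltransferase gene CARM1 by 0.28 (adjusted p = 0.00026) in Sharp1. HDAC1 fell by 0.15 there (adjusted p = 0.00317).

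Endosomal proteases cut the invariant chain and the antigens, and cathepsins changed in both groups. Of 21 genes of this list, 9 rose and 2 fell in shHIF, with a median of 0.11, and 4 rose and 8 fell in Sharp1, with a median of -0.06. Cathepsin V (CTSV) rose by 0.81 (SE 0.07, limma adjusted p = 1.16e-09), cathepsin L (CTSL), a protease of the invariant chain, by 0.56 (adjusted p = 7.87e-09) and cathepsin F (CTSF) by 0.55 (adjusted p = 6.43e-07) in shHIF. CTSV and cathepsin H (CTSH) had opposite signs in the groups: CTSV fell by 0.40 (adjusted p = 5.05e-05) in Sharp1, and CTSH rose by 0.41 (adjusted p = 8.42e-06) in shHIF and fell by 0.40 (adjusted p = 1.08e-05) in Sharp1. Cathepsin S (CTSS), the main invariant chain protease of antigen-presenting cells, rose by 0.45 (SE 0.12, adjusted p = 0.00563) in shHIF and differed by -0.12 in Sharp1. The CTSS rise was lost without shHIF A and D.

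In Sharp1 the widest change of that list was in cathepsin D. On its only probe set CTSD read 8.86 in control, 8.81 in shHIF and 7.53 in Sharp1, and fell by 1.33 (SE 0.08, limma adjusted p = 9.11e-13). Cathepsin K (CTSK) rose by 0.65 (adjusted p = 1.17e-05), and the lysosomal membrane proteins LAMP1 and LAMP2 went apart, LAMP1 falling by 0.47 (adjusted p = 1.99e-10) and LAMP2 rising by 0.31 (adjusted p = 1.39e-06). In shHIF LAMP1 rose by 0.17 (adjusted p = 0.00102) and LAMP2 by 0.14 (adjusted p = 0.013). With all probe sets averaged the LAMP1 call in shHIF was lost and LAMP2 turned to -0.38. Of the 4 LAMP2 probe sets, 1 was called higher and 2 lower in shHIF. IFI30, the lysosomal thiol reductase, was not analysed here.

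**Figure D3:**
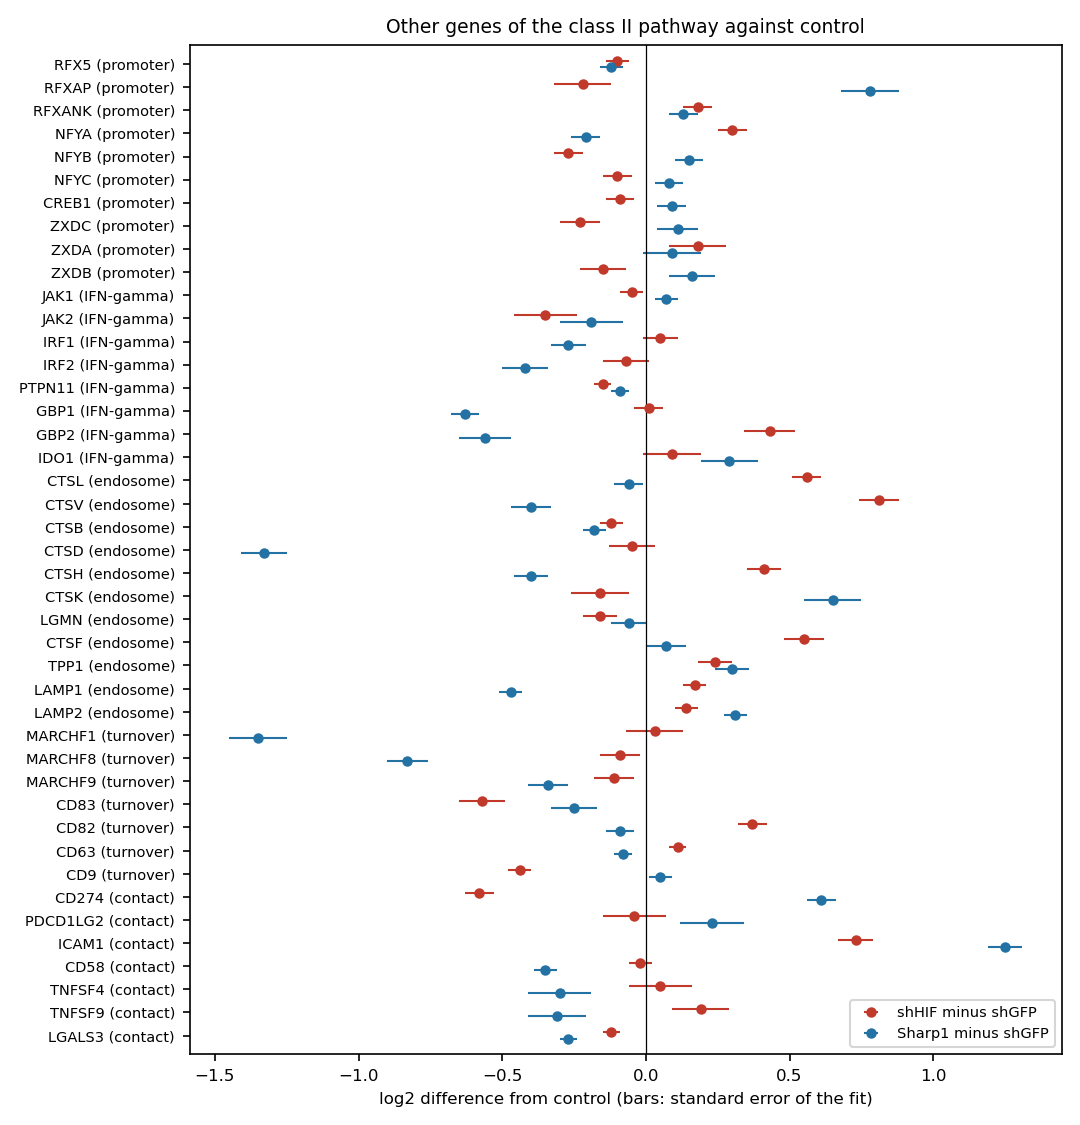
Log2 difference from control (horizontal axis) of the named genes of 5 pathway lists, shHIF in red and Sharp1 in blue, with the standard error as bars; the words in brackets give the list. Cathepsins V, L and F lie furthest right in shHIF apart from ICAM1, and MARCHF1 and CTSD lie furthest left in Sharp1.

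Class II at the surface is removed after ubiquitination by MARCH ligases, and CD83 counters that. Of 8 genes of this group, 2 rose and 2 fell in shHIF, with a median of -0.03, and 4 fell in Sharp1 while the other 4 were not called, with a median of -0.17. MARCHF1, which ubiquitinates the HLA-DR beta chain, read 6.03 in control and 4.68 in Sharp1 and fell by 1.35 (SE 0.10, limma adjusted p = 6.51e-11), with 3 of its 4 probe sets called lower. MARCHF8 fell by 0.83 (adjusted p = 1.95e-10) and MARCHF9 by 0.34 (adjusted p = 0.000676) there. The 3 ligases differed by 0.03, -0.09 and -0.11 in shHIF. CD83 fell in both, by 0.57 (adjusted p = 1.62e-06) in shHIF and by 0.25 (adjusted p = 0.0153) in Sharp1, the latter lost without control D or Sharp1 D. The tetraspanin CD82 rose by 0.37 (adjusted p = 2.62e-06) and CD9 fell by 0.44 (adjusted p = 5.38e-10) in shHIF.

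Of 14 genes of costimulation and T cell contact, 1 rose and 2 fell in shHIF, with a median of 0.01, and 2 rose and 4 fell in Sharp1, with a median of -0.02. CD274, which encodes PD-L1, fell by 0.58 (SE 0.05, limma adjusted p = 7.99e-10) in shHIF and rose by 0.61 (SE 0.05, adjusted p = 1.89e-10) in Sharp1 on the probe set that stands for it, and its other probe set was called the same way. The signs are opposite to those of the class II chains. The adhesion gene ICAM1 rose in both, by 0.73 (adjusted p = 3.04e-09) and 1.25 (adjusted p = 6.69e-14), on all 3 of its probe sets. CD58 fell by 0.35 (adjusted p = 3.17e-07) and LGALS3 by 0.27 (adjusted p = 5.1e-07) in Sharp1. CD80 and CD86, the costimulatory ligands of antigen-presenting cells, read 4.32 and 5.08 in control and were not called.

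Of the other class II chains and pseudogenes, 7 had a gene with its own probe set. HLA-DRB6, a pseudogene, rose by 0.55 (SE 0.13, limma adjusted p = 0.00213) in shHIF and fell by 0.60 (SE 0.13, adjusted p = 0.00101) in Sharp1, on an x probe set that can bind other DRB transcripts. HLA-DRB4 differed by 0.30 (SE 0.12, adjusted p = 0.0556) in shHIF and fell by 0.53 (SE 0.12, adjusted p = 0.000922) in Sharp1. Their other probe sets were not called, and averaging probe sets ended the shHIF call of HLA-DRB6 and the Sharp1 call of HLA-DRB4. Because they share sequence with HLA-DRB1, they are not independent of it. HLA-DQB2, HLA-DPA2 and HLA-DPB2 were not called in any comparison. In all 1 of the 7 rose in shHIF and 3 fell in Sharp1, with medians of 0.02 and -0.13.

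The HLA class II genes lie together on chromosome 6 with genes of class I peptide supply between them. Among 30 genes in order from NOTCH4 to VPS52, the 16 that are not class II counted 7 rises and 2 falls in shHIF and 2 rises and 4 falls in Sharp1, with medians of 0.17 and -0.01. Their differences were within 0.5 of 0 for 12 genes in shHIF and 14 in Sharp1. The immunoproteasome genes had the signs of the class II chains: PSMB8 rose by 0.52 (limma adjusted p = 2.91e-08) and fell by 0.43 (adjusted p = 3.85e-07), and PSMB9 rose by 0.53 (adjusted p = 1.26e-07) and fell by 1.13 (adjusted p = 9.18e-14). The transporter gene TAP2 next to them did not, and fell by 0.80 (adjusted p = 2.77e-13) in shHIF and by 0.15 (adjusted p = 0.00845) in Sharp1. TAP1 rose by 0.22 (adjusted p = 0.00632) in shHIF and differed by -0.15 in Sharp1. PSMB8-AS1, antisense to PSMB8, rose by 0.93 (adjusted p = 5.22e-07) in shHIF and fell by 0.93 (adjusted p = 4.23e-07) in Sharp1. Whether its probe sets also bind the PSMB8 transcript was not tested.

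**Figure D4:**
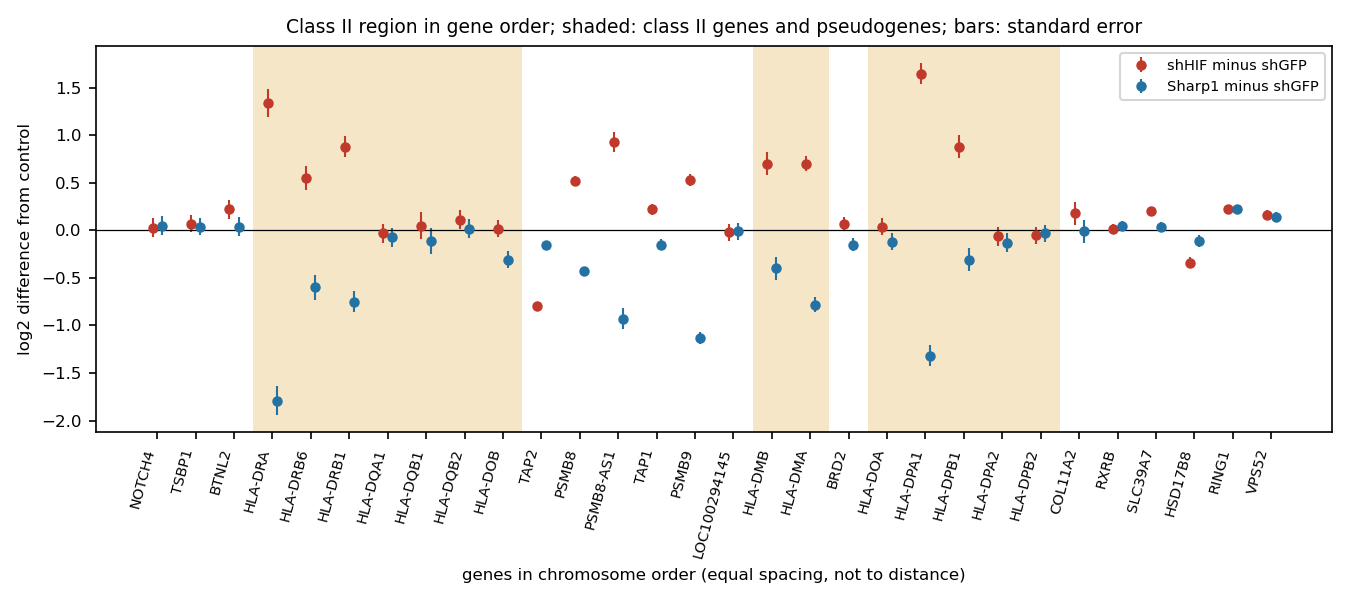
Log2 difference from control (vertical axis) of 30 genes in their order along the class II region of chromosome 6 at equal spacing, with standard errors; class II genes and pseudogenes are shaded, shHIF is red and Sharp1 blue. The HLA-DRA and HLA-DPA1 points lie furthest from 0, HLA-DQA1 to HLA-DOB stay near 0 or reach -0.31, and BRD2 and the genes from COL11A2 on lie within 0.35 of 0.

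The genes at the edges of the region had small differences. HSD17B8 fell by 0.34 (limma adjusted p = 5.29e-05) in shHIF, and RING1 rose by 0.23 (adjusted p = 0.000159) and 0.22 (adjusted p = 0.000298) in shHIF and Sharp1. NOTCH4, TSBP1, BTNL2, COL11A2 and RXRB were not called in any comparison. The fixed list of 16 neighbours, which holds PBX2 and AGER in place of PSMB8-AS1 and an unnamed locus, counted 6 rises and 2 falls in shHIF and 2 rises and 3 falls in Sharp1, with medians of 0.12 and 0.02.

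HLA-DRA had the widest range of group means among the brightest probe sets of the 10 genes, 3.13 log2 units, and served to find genes of like pattern. Likeness was the root mean square difference between centred log2 values over the 12 arrays, a description with no test. HLA-DPA1 stood nearest of all genes, at 0.26, CD74 stood at 0.43, and HLA-DRB1 stood at 0.66. The 5 nearest genes outside the class II set were IL24 at 0.30, ST6GALNAC5 at 0.32, AKR1C1 at 0.34, AKR1C2 at 0.35 and AKR1C3 at 0.37. IL24, a cytokine gene, read 7.12 to 7.37 in control, 8.60 to 8.73 in shHIF and 4.86 to 5.26 in Sharp1. ST6GALNAC5, a sialyltransferase gene, read 5.88 to 6.25, 6.78 to 7.14 and 4.18 to 4.39, and the aldo-keto reductase AKR1C3 read 9.21 to 9.37, 10.14 to 10.18 and 7.38 to 7.57. The groups were separate for each of these, and the AKR1C genes are near-identical copies whose probe sets may share signal.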

How the data were processed

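Each of 12 RNA samples was read on an Affymetrix array of 54675 probe sets, 62 of them controls. The authors deposited log2 values from RMA, per the submitters' processing notes (version not given in the sources used here). RMA corrects background, equalises the distributions of the arrays and gives 1 value per probe set, so low values are compressed. Names came from the platform annotation: 41091 of the non-control probe sets had 1 gene symbol, 1801 several and 11721 none. Promoters came from a RefSeq table of GRCh38.p14, and gene order from RefSeq's gene table.

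A model with 1 mean for each group was fitted over the 12 arrays in R 4.3.3 with limma 3.58.1 (eBayes with trend), once over 54613 probe sets and once over 19775 genes, each gene read on its single-symbol probe set with the highest mean. P-values were adjusted by Benjamini-Hochberg within each comparison, and a call is an adjusted p under 0.05. Standard errors are those of the fit. The fit was tested on simulated data. The precision is limited by 4 arrays a group, and detection calls and scan dates were not used here.

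The members, the lists and the rule for named genes were chosen with earlier results of these data known. Each member probe set is given. From each other list up to 3 called genes with the largest rise and 3 with the largest fall per comparison were eligible, with all promoter factors, the other class II chains, IRF1 and JAK2. Some with changing calls, and most of the third comparison, are left out, and a few others were named after their values were seen. Of 164 list entries, 155 had a value. The alternatives were a replicate block, other scalings, a filter on dim probe sets, fits of fewer groups or arrays, array weights, no trend, averaged probe sets, and probe sets without a suffix.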

Additional observations from a re-analysis of the deposited data

Results flagged for a closer look

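Among 99 groups of 4 arrays, over the class II and shared probe sets, 2 held an array far from the other 3, and chance flags about 1 in 20 such groups. On the HLA-DQB1 probe set 211656_x_at control array D read 5.98, against 6.10 to 6.13 on the other control arrays. On the dim HLA-DOA probe set 216946_at shHIF array B read 3.09, against 3.42 to 3.48. Neither probe set was called against control.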

How the results depend on the processing

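Shared sequence is a limit of these probe sets. On the 15 class II probe sets without an x, s or a suffix, 5 were called in shHIF, 5 in Sharp1 and 6 between them, against 12, 8 and 15 of all 28. With the 5 shared probe sets added, a choice made after seeing the data, the counts were 15, 12 and 19 of 33. These counts rest on different numbers of probe sets. No share over all probe sets was taken for the sets of 15 and 33, and nothing is read from them. Every class II call kept its direction in the alternatives run. Of the calls, 10 of 12, 7 of 8 and 12 of 15 held in every one. Leaving out shHIF A and D gave 10, 8 and 12 calls, and leaving out single arrays 11 to 14, 7 to 9 and 13 to 16. With the replicate block there were 13, 8 and 14 calls, and 39, 42 and 59 pathway genes instead of 41, 45 and 63. The letters were not taken to pair the arrays, since 1 of 12 same-letter correlations was over 0.1 and 1 of 12 arrays correlated best with its own letter. With all probe sets of a gene averaged, LAMP2 turned to -0.38 in shHIF and PRDM1, between Sharp1 and shHIF, turned from -0.09 to 0.26. The cause was not tested. Probe sets near 3 to 5, among them those of CIITA, have little signal over background, so a difference there may not have been detectable.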

Other observations

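HLA-DQA1 was read on 3 probe sets, and 1 of them was called. On 213831_at control arrays read 2.95 to 3.19 and Sharp1 arrays 3.09 to 3.26, and shHIF arrays A to D read 3.56, 3.20, 3.19 and 3.93. The mean difference of 0.37 (SE 0.12, limma adjusted p = 0.0279) in shHIF was called higher although the groups overlapped, and shHIF A and D were the highest arrays. The same arrays had the lower spike-in signal, and its part in the value was not tested.

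On the HLA-DRB6 probe set 217323_at shHIF array A read 4.58 and the other shHIF arrays 3.75 to 3.84, against 4.00 to 4.40 in control. The probe set was not called.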
